A study of Homo sapiens with 6 samples.

Results

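The genes described here are 8 annexins (ANXA1, ANXA2, ANXA3, ANXA4, ANXA5, ANXA6, ANXA7 and ANXA11), the annexin partner S100A10 and the ferlin gene MYOF, 10 of the 23382 gene names of a count table. They were taken by name, and each stood on a single row of the table. RNA was sequenced from UM-UC-3, a line of human bladder cancer cells. There were 3 libraries with the label negative control and 3 with the label si-CPSF3, read here as an siRNA against the pre-mRNA endonuclease CPSF3. The labels give no dose, time after transfection or sequence of the siRNA, and they do not say whether the libraries of a group came from separate cultures, so p-values reflect only how these libraries vary, and that variation can be technical. The set was selected on the log2 fold change between these 2 groups, so the group differences of its members are given as a description: no p is printed for a member, and the count past the threshold stands only beside the share over all genes.

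Annexins are cytosolic proteins that bind acidic membrane phospholipids when calcium rises. When the plasma membrane tears, calcium flows in and annexins gather at the wound within moments, where they cross-link membranes and help to close the hole. MYOF encodes myoferlin, a large membrane-anchored protein with several C2 domains that takes part in vesicle fusion and membrane repair and is abundant in many tumour cells. S100A10 encodes p11, a small protein of the S100 family that pairs with ANXA2 into a heterotetramer at the cell surface, which serves as a docking site for plasminogen and its activators.

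CPSF3 cuts pre-mRNA shortly after a polyadenylation signal, so the annotated transcript ends of the members are shown first. Each line gives the last 30 bases of the longest principal coding transcript in GENCODE 29 (GRCh38), 5′ to 3′ on the strand of the gene and in DNA letters, with AATAAA or ATTAAA in capitals:
MYOF, minus strand, chr10:93306430-93306459: aatgaaactaAATAAAaatgtttcaccttt
ANXA2, minus strand, chr15:60347134-60347163: taaAATAAAatcagttcctgagtcacacaa
S100A10, minus strand, chr1:151982915-151982944: caataAATAAAgttcttttttagttccaaa
ANXA5, minus strand, chr4:121667955-121667984: gtgtgtttagatttattATTAAAtttattt
ANXA7, minus strand, chr10:73375101-73375130: ttagattccacgtataaatggtatacaata
The search covered the transcript strand only. AATAAA was found in 5 of the 10 members (MYOF, ANXA1, ANXA2, ANXA11 and S100A10), ATTAAA in 3 (ANXA3, ANXA4 and ANXA5), and neither in ANXA6 and ANXA7. Over 19565 coding genes treated in the same way, 51.2% held AATAAA, 14% held ATTAAA and 63.3% held at least one of them. Only 1 transcript per gene entered these counts. Among all annotated coding ends, 1 of 4 of ANXA6 held one of the motifs, and 0 of 1 of ANXA7. All of these are annotated ends, and the ends used in these cells were not measured.

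Libraries held 4145385 to 4378899 counts. The targeted gene did not follow the labels: CPSF3 had 20, 50 and 36 counts in control replicates 1, 2 and 3 against 56, 38 and 66 in the si-CPSF3-labelled libraries (log2 fold change 0.67, SE 0.32, edgeR adjusted p = 0.329; two-sided exact permutation test p = 0.3, with 0.1 the lowest p that 2 groups of 3 can give). The groups are therefore named by their labels only, and "lower" means lower in the si-CPSF3-labelled libraries. Of 11069 genes with enough counts to be tested with edgeR's quasi-likelihood test, 247 (2.23%) differed at a Benjamini-Hochberg adjusted p under 0.05, 80 higher (0.723%) and 167 lower (1.51%). Markers of bladder epithelium were present in part. Of 9 luminal urothelial markers, 2 had enough counts, UPK1B at 5.93 and 3.07 CPM in the control and the other group (log2 fold change -0.95, SE 0.35, edgeR adjusted p = 0.197) and PPARG at 5.61 and 5.76 CPM, while UPK2 and ELF3 had 0 counts in all 6 libraries. Of 9 basal and epithelial markers, 3 were tested, KRT8, KRT18 and CD44, of which CD44 fell (log2 fold change -0.70, SE 0.15, edgeR adjusted p = 0.0275). CD44 was past the threshold in 2 of 6 leave-one-out fits. KRT8 had a log2 fold change of 0.07 (SE 0.17) and KRT18 of -0.38 (SE 0.16), and CDH1 and EPCAM had 0 counts throughout. Of 7 mesenchymal markers, 4 were tested and SPARC fell (log2 fold change -2.22, SE 0.33, edgeR adjusted p = 0.00208). VIM, the most abundant and most of the summed level of the list, was at -0.22 (SE 0.14). CDH2 was at 0.34 (SE 0.42) and ZEB1 at 0.23 (SE 0.24), and the median of the 4 was 0.0038. SPARC passed in all 6 leave-one-out fits, and neither SPARC nor CD44 passed on either FPKM scale. Summed levels in the control libraries against the others were 12.5 to 14.6 against 9.40 to 10.9 CPM for the luminal list, 354 to 381 against 288 to 317 CPM for the basal and epithelial list, and 285 to 335 against 237 to 273 CPM for the mesenchymal list. Of 8 leukocyte marker names, 3 were measured, and their summed level was 38.6 to 43.4 CPM (counts relative to library size after TMM adjustment) in the control libraries against 27.7 to 34.4 CPM in the others. That sum came mostly from CD68, at 25.3 ± 3.88 and 14.1 ± 2.49 CPM (SD, n = 3), and LYZ, while CD14 had at most 2 counts in a library. The part of these markers in the results below was not tested.

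Among the 9 members with enough counts to be tested, 1 lay past the threshold used over all genes, MYOF, which was lower. The count of 1 in 9 stands beside the 2.23% called over all genes and becomes 0 on either FPKM scale tried. Nothing is read from it, because the contrast served to choose the set. The median log2 fold change of the 9 members was -0.10, against -0.01 over all genes tested. Of the 9, 3 lay above 0 and 6 below.

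MYOF had 178, 191 and 171 counts in control replicates 1, 2 and 3 against 67, 57 and 79 in the si-CPSF3-labelled replicates 1, 2 and 3. In normalised levels these were 40.2, 39.8 and 44.5 CPM in the control libraries against 18.0, 13.3 and 17.9 CPM in the others. All 3 control libraries lay above all 3 si-CPSF3-labelled libraries, with a wide gap between the groups and little spread within them. Groups that did not overlap were seen for 21.2% of all genes tested and groups that did not overlap with the second group lower for 11.4% or higher for 9.82%. Of the 9 members, 2 had groups that did not overlap, MYOF and ANXA7. The group means were 41.5 ± 2.60 and 16.4 ± 2.68 CPM (SD, n = 3), a log2 fold change of -1.34 (SE 0.18), or 39.6% of the control level. The 95% interval of the fold, from 0.302 to 0.519, is a description and not a test, because this contrast chose the set. How the deposited FPKM values were calculated is not given. For MYOF they were 9.01, 6.51 and 6.10 in the control libraries against 3.51, 1.97 and 2.69 in the others, again without overlap. Among the control libraries their order differed from that of CPM. With any 1 library left out the log2 fold change lay between -1.41 and -1.19, and on log2(FPKM + 1) it was -1.14. MYOF lies on the minus strand of chromosome 10 from 93306429 to 93482317 (GRCh38), and no other GENCODE gene overlaps it.

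**Figure D1:**
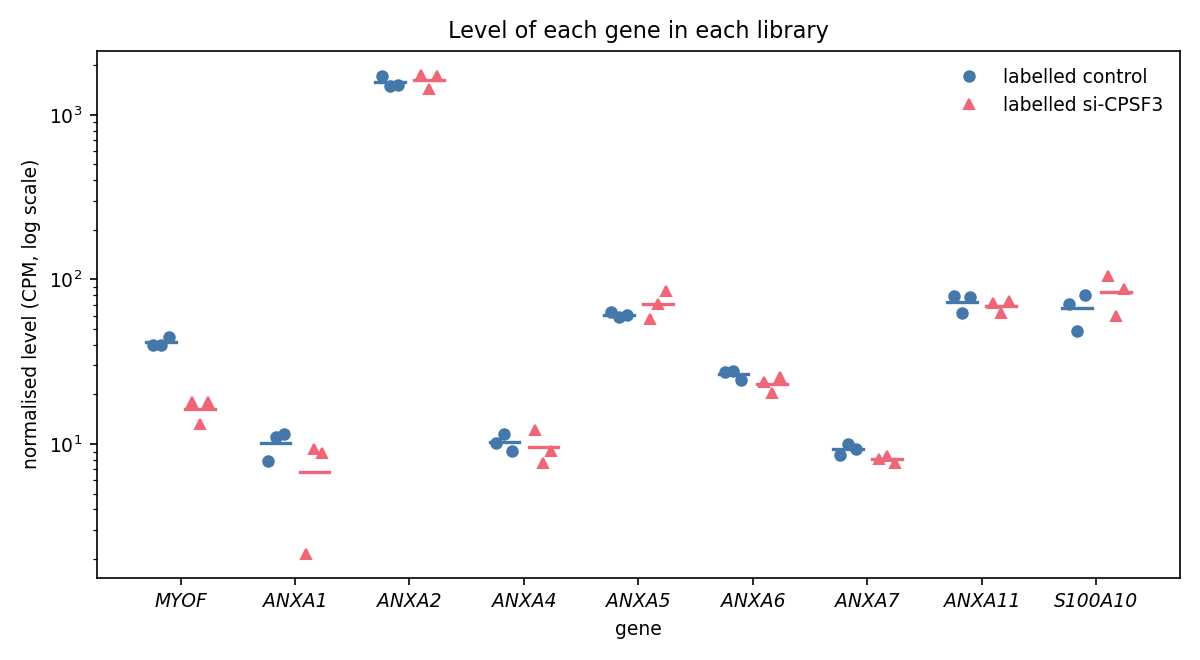
Normalised level (CPM, log axis) of the 9 tested members in each of the 6 libraries; circles are control libraries, triangles are si-CPSF3-labelled libraries, and short lines are group means. MYOF is separated by group, at 39.8 to 44.5 against 13.3 to 18.0 CPM, ANXA7 is separated by a small margin, and the groups of the other 7 genes overlap.

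ANXA2 and S100A10 form one protein complex, and the groups overlapped for both. ANXA2, the abundant annexin that links membranes to actin, was at 1721, 1509 and 1512 CPM in the control libraries against 1756, 1429 and 1728 CPM in the si-CPSF3-labelled libraries. The highest and the lowest of these 6 values both came from si-CPSF3-labelled libraries, so the groups overlapped throughout. Its log2 fold change was 0.05 (SE 0.16), with a 95% interval of the fold from 0.818 to 1.31. S100A10 was at 70.9, 48.6 and 80.7 CPM in the control libraries against 105, 60.3 and 87.3 CPM in the others. Replicate 2 was the lowest library of S100A10 in each group, and the groups overlapped. Its log2 fold change was 0.34 (SE 0.21), with a 95% interval of the fold from 0.922 to 1.73.

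The balance of the pair was read within each library from the deposited FPKM values. ANXA2 stood 11.6, 12.6 and 4.59 times above S100A10 in control replicates 1, 2 and 3 against 5.26, 9.13 and 4.80 times in the si-CPSF3-labelled libraries. Control replicate 3 had the lowest ratio of all and control replicate 2 the highest, and the mean ratios were 9.61 ± 4.38 and 6.39 ± 2.38 (SD, n = 3). The ratio of the raw counts, which is not scaled to length, was 24.3, 31.1 and 18.7 in the control libraries against 16.7, 23.7 and 19.8 in the others, so by counts the lowest ratio was that of si-CPSF3-labelled replicate 1. The groups overlapped in both units, which did not order the libraries alike. FPKM and counts therefore differ by more than a fixed length per gene, and how the FPKM values were calculated is not given.

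ANXA2 has processed pseudogenes, intronless copies elsewhere in the genome, and one of them carried many counts. ANXA2P2, on chromosome 9 from 33624274 to 33625293 on the plus strand, aligned over its 1020 annotated bases with the ANXA2 transcript at 98.4% identity, with 16 differing bases and no gaps. Of all 100-base windows of the ANXA2 transcript, 18.2% occur letter for letter in ANXA2P2, and of all 50-base windows 35.3% do. The sources used here do not give the read length. A stretch around the first difference shows how alike the copies are, with the differing base in capitals and positions counted from 1 at the 5′ end of the stretch (T15C, ANXA2 base first):
ANXA2, minus strand of chromosome 15: tctgtcaaagcctaTactaactttgatgct
ANXA2P2, plus strand of chromosome 9: tctgtcaaagcctaCactaactttgatgct
Counts on the ANXA2P2 row equalled 23.0%, 23.5% and 25.3% of those on the ANXA2 row in the control libraries against 26.7%, 24.3% and 20.7% in the si-CPSF3-labelled libraries. The group means differed by far less than the spread, at 23.9% ± 1.20 and 23.9% ± 3.02 (SD, n = 3). How the authors' counting divided reads between the copies is not given, so the level of ANXA2 is uncertain. ANXA2P2 had a log2 fold change of 0.05 (SE 0.16, edgeR adjusted p = 0.916). The sum of both rows was 2117, 1864 and 1895 CPM in the control libraries against 2225, 1776 and 2087 CPM in the others. ANXA2P3, at 92.3% identity, had 0 counts in all 6 libraries. ANXA2P1, at 93.8% identity, was not among the gene names of the count table, so it has no level here.

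ANXA1, whose protein inhibits phospholipase A2 and dampens inflammation, had its spread set by 1 library. Its counts were 35, 53 and 44 in the control libraries against 8, 40 and 39 in the si-CPSF3-labelled libraries. Replicate 1 of the si-CPSF3-labelled libraries stood far below the other 5, while the remaining 2 of that group lay within the control range. In CPM these were 7.91, 11.05 and 11.45 in the control libraries against 2.15, 9.34 and 8.84 in the others. The log2 fold change was -0.56 (SE 0.39). Without that library it was -0.13. The related gene ANXA9, which is no member, was also lowest there, at 18 counts against 41 to 69 in the other 5 libraries (log2 fold change -0.62, SE 0.28, edgeR adjusted p = 0.313). ANXA8, also no member, was instead highest in that library, at 41 counts against 15 to 38 in the other 5.

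ANXA5, the annexin used as a probe for exposed phosphatidylserine, was at 63.0, 59.2 and 61.2 CPM in the control libraries against 57.5, 70.8 and 85.0 CPM in the others. The control libraries lay within a narrow range and the si-CPSF3-labelled libraries spread on both sides of it. ANXA5 had a log2 fold change of 0.22 (SE 0.16) and a 95% interval of the fold from 0.915 to 1.48. ANXA6, whose protein carries more annexin repeats than its relatives, was at 27.6, 27.9 and 24.5 CPM in the control libraries against 23.9, 20.6 and 25.4 CPM in the others. A single si-CPSF3-labelled library reached into the control range. The log2 fold change of ANXA6 was -0.20 (SE 0.18), with a 95% interval of the fold from 0.670 to 1.14.

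ANXA7 and ANXA11 have long amino-terminal tails that set them apart from other annexins, and ANXA11 is known to tether RNA granules to lysosomes. ANXA11 was at 78.8, 62.5 and 78.1 CPM in the control libraries against 71.7, 62.6 and 73.7 CPM in the others, with complete overlap. Its log2 fold change was -0.08 (SE 0.15), with a 95% interval of the fold from 0.755 to 1.19. ANXA7 was at 9.32 ± 0.711 CPM in the control libraries and at 8.06 ± 0.349 CPM in the others (SD, n = 3). The groups of ANXA7 did not overlap, but the lowest control library, at 8.58 CPM, was close to the highest of the others, at 8.41 CPM. Its counts, 38, 48 and 36 against 30, 36 and 34, gave a log2 fold change of -0.21 (SE 0.25).

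ANXA4, which self-assembles into lattices on membranes, had 45, 55 and 35 counts in the control libraries against 45, 33 and 40 in the others, at 10.2 ± 1.18 and 9.62 ± 2.24 CPM (SD, n = 3). Its groups overlapped and its log2 fold change was -0.10 (SE 0.26). ANXA3 was at the limit of detection: a single count was recorded over all 6 libraries, in replicate 2 of those labelled si-CPSF3. A count of 0 in the control libraries allows a level of up to 0.230 CPM (3 counts over the group, counting error only). On opposite strands, ANXA4 overlaps AAK1 and AC092431.1, ANXA7 overlaps AL512656.1 and ANXA2 overlaps AC087385.1 over 312 bases. These are overlaps of whole gene spans with introns, and shared exon bases were not measured. The strand setting of the counting is not given, and whether reads were shared within these pairs was not tested.

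**Figure D2:**
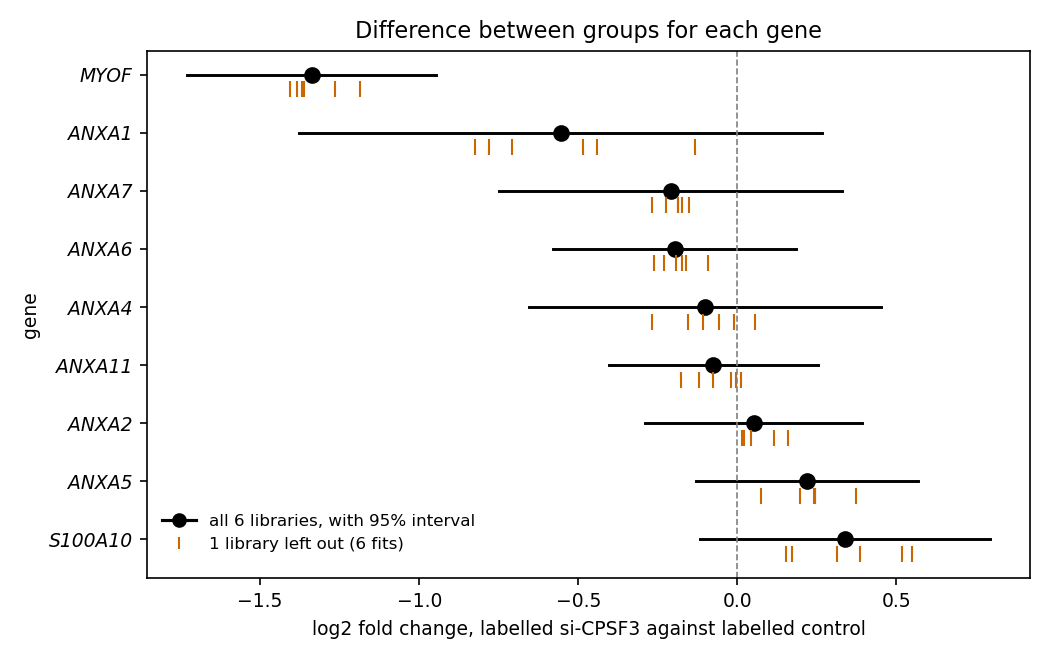
Log2 fold change of the si-CPSF3-labelled libraries against the control libraries for the 9 tested members; points and lines are the fit on all 6 libraries with its 95% interval, and orange ticks are the 6 fits with 1 library left out. The point of MYOF lies furthest left, at -1.34, and the ticks of ANXA1 reach from -0.82 to -0.13. The set was chosen on this contrast, so the intervals are a description and not a test.

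The levels of the members were ordered by their deposited FPKM, averaged over the 6 libraries. These values did not follow the counts by a fixed length per gene, so the order is that of the deposited values only. ANXA2 came first at 1137 ± 226 FPKM (SD, n = 6), followed by S100A10 at 162 ± 58.2 and ANXA5 at 47.5 ± 5.32. Each of these 3 was above the next gene in all 6 libraries. ANXA11 at 11.4 ± 1.82 FPKM was above ANXA6 at 9.51 ± 1.32 in 5 of 6 libraries, and the ranges of these neighbours overlapped. ANXA6 was above ANXA1, at 6.87 ± 2.64 FPKM, in all 6, and ANXA1 was above MYOF in 5 of 6. MYOF at 4.96 ± 2.69, ANXA7 at 4.07 ± 1.04 and ANXA4 at 3.89 ± 1.30 FPKM followed with overlapping ranges, and ANXA3 was listed at 0 in 5 of 6 libraries. MYOF was above ANXA7 in 4 of 6 libraries, which included all 3 control libraries. In the control group alone the order was the same, but among the si-CPSF3-labelled libraries MYOF, at 2.72 ± 0.769 FPKM, came after ANXA4 at 3.64 ± 1.79 and ANXA7 at 3.50 ± 0.730 (SD, n = 3).

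**Figure D3:**
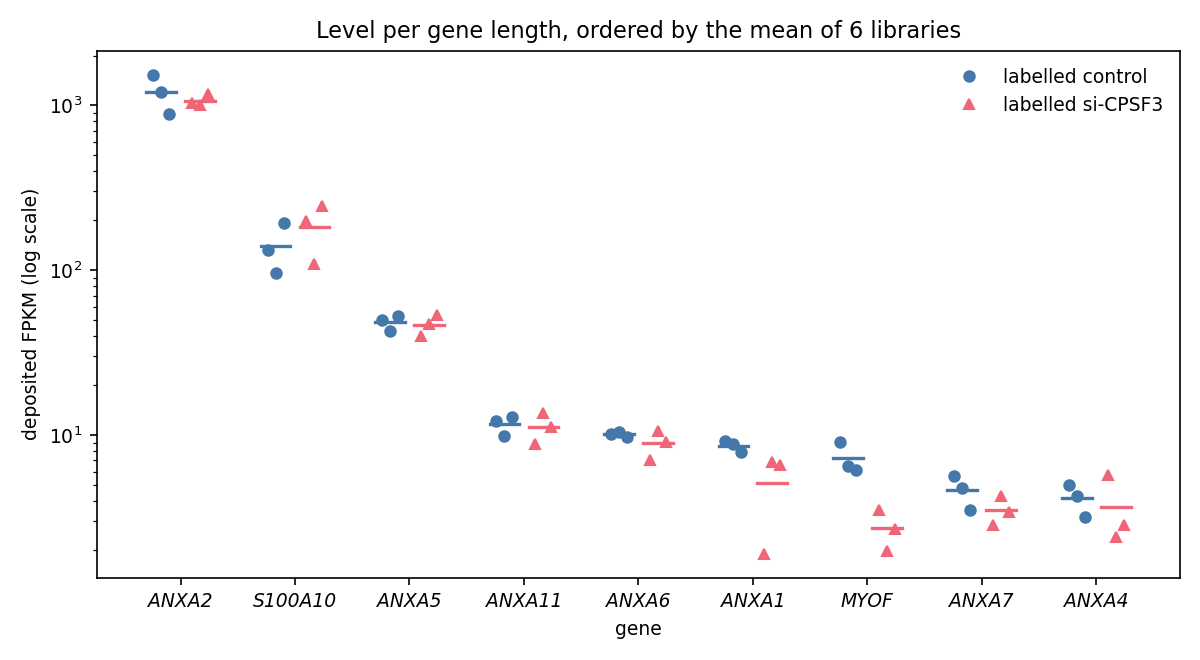
Deposited FPKM (log axis) of the members in each library, ordered by the mean of 6 libraries; circles are control libraries, triangles are si-CPSF3-labelled libraries, and short lines are group means. ANXA2 lies between 883 and 1531 FPKM, and genes from ANXA11 to ANXA4 lie close together, none above 13.6 FPKM.

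ANXA2 made up most of the annexin counts in each library. It took 88.7% to 89.8% of the counts of the 8 annexins in the control libraries against 88.8% to 90.9% in the others. The summed level of the 8 annexins was 1917, 1691 and 1706 CPM in the control libraries against 1931, 1609 and 1938 CPM in the si-CPSF3-labelled libraries. The sums overlapped, with means of 1771 ± 126 and 1826 ± 188 CPM (SD, n = 3). Without ANXA2 the sum was 191 ± 7.44 and 188 ± 18.8 CPM (SD, n = 3).

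Transcripts whose levels followed MYOF most closely were ranked by Pearson's r of log2(CPM + 1) over the 6 libraries, among 3087 genes of at least 20 CPM. The 5 closest were CD59, a membrane-bound inhibitor of complement (r = 0.996), TOMM20, a receptor of the mitochondrial import pore (0.995), the metallothionein MT1X (0.988), the hnRNP-like gene HNRNPUL2 (0.985) and the tyrosine kinase gene ABL1 (0.985). All 5 were separated by group in the same way as MYOF, which gives a high r by itself, so the ranking is a description of these 6 libraries. CD59 was at 152 ± 4.13 and 84.0 ± 5.01 CPM (SD, n = 3), a log2 fold change of -0.86 (SE 0.14). ABL1 was at 39.6 ± 6.06 and 17.4 ± 1.47 CPM, a log2 fold change of -1.18 (SE 0.18). HNRNPUL2 was at 143 ± 2.81 and 112 ± 7.41 CPM, a smaller log2 fold change of -0.35 (SE 0.14).

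Further genes of membrane repair and of the annexins' partners were read from 6 lists that hold 89 genes, of which 59 had enough counts. By edgeR, 6 of these 59 (10.2%) fell and 0 rose, beside 1.51% lower over all genes tested. The lists were chosen with earlier results of these data known, so these counts and those per list below are a description. At an unadjusted p under 0.05 by edgeR the counts were 13 lower and 3 higher. No share over all genes was calculated at that threshold, so nothing is read from these counts. DESeq2 called 5 lower and 0 higher, beside 172 lower and 114 higher of 9996 genes. With limma-voom the calls were also 5 lower and 0 higher, beside 137 lower and 71 higher of 11069 genes. The median log2 fold change of the 59 was -0.07, against -0.01 over all genes tested. Without the first or the second si-CPSF3-labelled replicate a single gene of the 59 passed, PLAU, and without control replicate 2 there were 3. With the replicate number as a block 3 passed, MYH9, PLAU and SRI, and CAPN2, CAVIN1 and PLGRKT did not. On log2(FPKM + 1) PLAU alone passed, and on log2(FPKM + 0.1) none did.

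The genes around plasminogen activation and annexin ligands held 3 of the 6 calls, among 8 tested, all lower (1.51% over all genes tested), and the median of the 8 was -0.77. PLAU, the urokinase that converts plasminogen to plasmin, was at 37.5, 27.5 and 33.0 CPM in the control libraries against 15.3, 8.88 and 12.5 CPM in the others. The groups lay far apart (log2 fold change -1.42, SE 0.22, edgeR adjusted p = 0.00356), and PLAU passed in all 6 leave-one-out fits. PLGRKT, a plasminogen receptor, had 27, 31 and 16 counts in the control libraries against 7, 5 and 9 in the others. It passed narrowly (log2 fold change -1.71, SE 0.43, edgeR adjusted p = 0.0494) and in 0 of the 6 leave-one-out fits. SRI, the calcium-binding protein sorcin and a partner of ANXA7, was at 28.0, 23.6 and 23.2 CPM in the control libraries against 10.2, 9.11 and 13.2 CPM in the others (log2 fold change -1.20, SE 0.22, edgeR adjusted p = 0.00885). SRI did not pass without si-CPSF3-labelled replicate 1 or 2.

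The urokinase receptor gene PLAUR did not pass, at 57, 48 and 45 counts in the control libraries against 15, 29 and 24 in the others (log2 fold change -1.08, SE 0.28), although its groups did not overlap. The enolase gene ENO1, whose protein also binds plasminogen at the cell surface, was at a log2 fold change of -0.46 (SE 0.16). Tissue plasminogen activator, PLAT, had at most 2 counts in a library, and FPR1, a receptor for ANXA1 peptides, had 1 count in all.

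In the calpain system, whose proteases cleave repair proteins when calcium enters, 1 of 8 fell and 0 rose, beside 1.51% lower and 0.723% higher over all genes tested. CAPN2, the large subunit of m-calpain, was at 26.4, 31.7 and 26.3 CPM in the control libraries against 13.96, 10.3 and 16.3 CPM in the others (log2 fold change -1.06, SE 0.21, edgeR adjusted p = 0.0156). The groups did not overlap, and CAPN2 passed in 3 of the 6 leave-one-out fits, but not with the replicate number as a block or on either FPKM scale. Its small subunit CAPNS1 was at -0.04 (SE 0.14), CAPN1 at -0.23 (SE 0.23) and the inhibitor gene CAST at -0.20 (SE 0.15).

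Of 19 vesicle fusion and scaffold genes, 2 fell and 0 rose, beside the same 1.51% and 0.723%. MYH9, the heavy chain of non-muscle myosin IIA, was at 76.4, 73.6 and 64.3 CPM in the control libraries against 31.1, 29.2 and 46.3 CPM in the others (log2 fold change -1.004, SE 0.18, edgeR adjusted p = 0.00958), and did not pass without si-CPSF3-labelled replicate 1 or 2. CAVIN1, a coat protein of caveolae, was at 112 ± 8.96 and 74.3 ± 3.46 CPM (SD, n = 3; log2 fold change -0.60, SE 0.14, edgeR adjusted p = 0.0430) and passed in 0 of the 6 leave-one-out fits. AHNAK, a giant scaffold protein that binds the ANXA2 and S100A10 complex, was at -0.25 (SE 0.16). TRIM72, also called MG53, which nucleates repair in muscle, was at 5.35 and 5.57 CPM with a log2 fold change of 0.06 (SE 0.33). Dysferlin, DYSF, the muscle relative of myoferlin, had 0 counts in all 6 libraries.

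Of 17 genes of the ESCRT machinery, which pinches off damaged membrane, edgeR, DESeq2 and limma-voom called 0, beside 2.23% over all genes by edgeR. At an unadjusted p under 0.05 by edgeR, 1 of the 17 was higher and 1 lower. Their median was 0.27. The most abundant were CHMP3 at 0.05 (SE 0.17, edgeR adjusted p = 0.924) and VPS4A at -0.08 (SE 0.16, edgeR adjusted p = 0.868). The largest difference, named after its values were seen, was that of CHMP4C, with 16, 18 and 11 counts in the control libraries against 20, 42 and 36 in the others, whose groups did not overlap but which did not pass (log2 fold change 1.18, SE 0.34, edgeR adjusted p = 0.0901). PDCD6, the calcium sensor ALG-2 that binds ANXA7 and ANXA11, was at -0.06 (SE 0.17). Of 5 tested relatives of S100A10, the same tools called 0, with 1 higher and 0 lower at an unadjusted p under 0.05 by edgeR. S100A11, a partner of ANXA1, was at 594 ± 105 and 738 ± 48.9 CPM (SD, n = 3; log2 fold change 0.31, SE 0.16, edgeR adjusted p = 0.388), and S100A6 had a log2 fold change of 0.16 (SE 0.22, edgeR adjusted p = 0.793). The 2 other annexins tested, ANXA8 and ANXA9, gave 0 calls by each tool, with ANXA9 lower at an unadjusted p under 0.05 by edgeR. Beside the 2.23% called over all genes tested, 0 calls in ESCRT, S100 and annexin lists of these sizes are not read as a result. The same holds for the calls at an unadjusted p, for which no share over all genes was calculated.

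**Figure D4:**
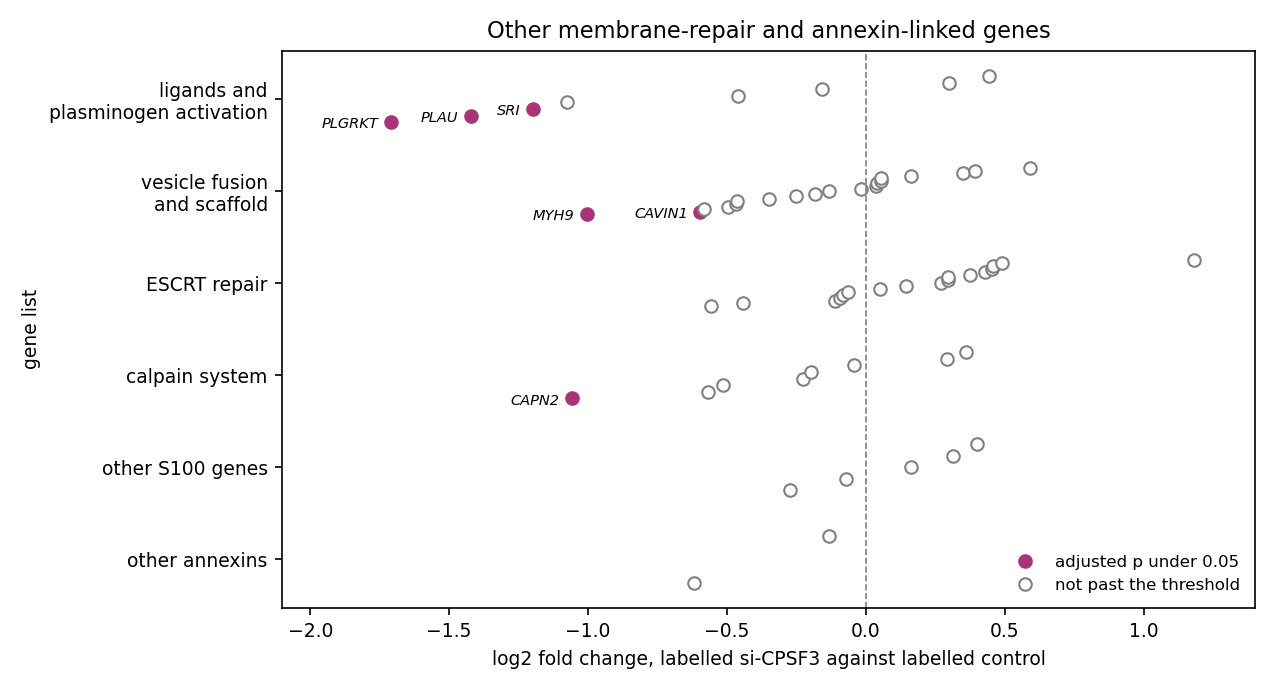
Log2 fold change of the si-CPSF3-labelled libraries against the control libraries for the 59 tested genes of 6 lists, 1 point per gene; filled points passed an edgeR adjusted p under 0.05 and carry their names. The 6 filled points all lie below 0, between -1.71 and -0.60, and the ESCRT genes spread around a median of 0.27.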

How the data were processed

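The authors deposited raw read counts per gene and FPKM values, 1 column per library, matched to the labels by library name. Per the submitters' processing notes, reads were placed on hg38. No source used here names the aligner, counting tool or annotation. Depth was 4145385 to 4378899 counts per library. Per the labels' protocols, a SMARTer mRNA kit served for library preparation from column-purified total RNA. Each gene was its row of highest mean count (25479 rows, 23382 names). The test was edgeR 4.0.16 (glmQLFit, glmQLFTest; R 4.3.3) with TMM factors, the default expression filter, no covariate, and p-values adjusted after Benjamini and Hochberg across 11069 genes (two-sided, threshold 0.05). It was tested on simulated data. SE is the size of the log2 fold change over the square root of F. The deposited FPKM values served to order levels between genes and as an alternative with limma 3.58.1. DESeq2 1.42.0 was another alternative. ANXA2 was aligned to its pseudogenes with Biopython 1.88.

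The members and gene lists were chosen with earlier results of these data known. Named genes were CPSF3, the members, the ANXA2 pseudogenes, the 5 genes most like MYOF and, per list, up to 4 genes past the threshold of at least 1 CPM or else the 2 most abundant. The other list genes were named for their role after their values were seen. No replicate pair agreed within sampling noise (chi-square per degree of freedom 6.69 to 16.4).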

Additional observations from a re-analysis of the deposited data

How the results depend on the processing

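As a description of a contrast that chose the set, the log2 fold change of MYOF lay between -1.43 and -1.14 over 17 alternatives, and the count of members past the threshold, 1, became 0 with both FPKM pseudocounts; the cause was not tested. Of the others, ANXA1, ANXA6, ANXA7 and S100A10 kept their sign in all 17, ANXA4 and ANXA11 in 16, ANXA5 in 15 and ANXA2 in 14. CPSF3 did not pass in any of the 17 and was above 0 in each, at 0.36 to 0.91. Counts of all changed genes were 547 without a filter (232 higher, 315 lower), 41 on log2(FPKM + 1) (11 and 30) and 31 on log2(FPKM + 0.1) (12 and 19). Scaling by library totals gave 36 higher and moved the median of all genes to -0.10. With 1 library left out, they were 85 to 199 (30 to 69 higher, 55 to 130 lower). Of the 59 other repair genes, 1 passed on log2(FPKM + 1), 0 on log2(FPKM + 0.1), and 1 to 4 with 1 library left out. Deviations of same-numbered libraries from their group means correlated at 0.0587, 0.0811 and -0.0536. Those of differently numbered libraries correlated at -0.137 to 0.081. These values cannot decide whether the numbers are a pairing, and the labels do not say. With the replicate number as a block, 147 genes passed (41 higher, 106 lower), and 3 of the other repair genes. ANXA3 had 1 count in all, and whether its transcript is absent or too rare for this depth was not tested.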
